A study of Gallus gallus with 14 samples.

Results

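NONGGAT009044.2 and NONGGAT009046.2 are a pair of known lncRNAs, transcripts listed in the NONCODE database, that overlap on chromosome 8 of the chicken genome Galgal4. They are 2 of the 9977 lncRNAs measured in the uterovaginal junction (UVJ) of 14 laying hens. The pair was selected on the measured difference between long-DF and short-DF hens, above all within the hens with the prefix JF, so that difference is given here as a description and without a test. DF stands for duration of fertility, the time over which a hen lays fertile eggs after insemination.

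Each library was made from the UVJ of 1 hen, and the 7 long-DF hens and 7 short-DF hens came from opposite ends of the DF range of a flock of egg-type hens. Each group held 4 hens numbered with JH and 3 numbered with JF, prefixes that the sources used here do not explain. The long-DF hen JH14 has a less specific source label than the other long-DF hens and was placed by its title. The authors counted between 213304 and 281892 fragments on lncRNAs per hen, without normalization, and also gave FPKM, the fragments scaled to transcript length and library size.

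The UVJ joins the uterus and the vagina of the hen and holds the sperm storage tubules, in which sperm survive for a long time after insemination. A lncRNA is a transcript that is not translated into protein, and many are spliced into several forms from a single locus. A short read that falls on a stretch common to several forms does not by itself tell which form it came from. The sources used here give no function for either lncRNA, and no genome of the build Galgal4 was used here, so neither their sequences nor their exons are shown.

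NONGGAT009044.2 ran from position 24645563 to 24663216 of chromosome 8, a span of 17654 bp for a transcript of 2660 nt. NONGGAT009046.2 ran from 24645647 to 24651671, a span of 6025 bp for a transcript of 2442 nt. The whole span of NONGGAT009046.2 (100%) lay within that of NONGGAT009044.2, of which it covered 34.1%. Their starts were 84 bp apart and their ends 11545 bp apart. The study's own lists class NONGGAT009044.2 as antisense to an exon and NONGGAT009046.2 as intergenic, while the strand of the 2 was not analysed here.

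A pair of further known lncRNAs overlapped both of them. NONGGAT009043.2 ran from 24645563 to 24652194 (2629 nt) and NONGGAT009045.2 from 24645573 to 24651093 (2417 nt). NONGGAT009043.2 thus had the same start as NONGGAT009044.2. These 4 transcripts made up the locus, and no other lncRNA of the table overlapped it. The nearest lncRNAs on either side, NONGGAT009041.2 and NONGGAT009047.2, were 394704 and 283180 bp away and had 0 to 3 and 0 to 1 fragments per hen.

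**Figure D1:**
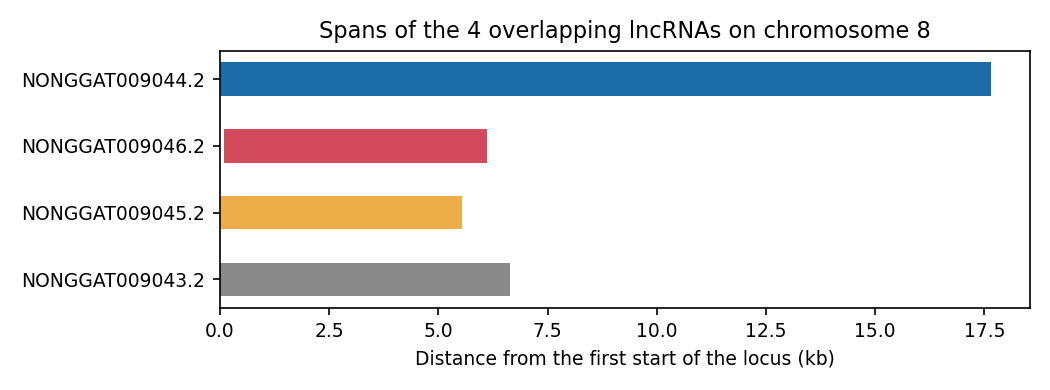
Span of each of the 4 overlapping lncRNAs, as bars along the distance from the first start of the locus in kb. The 4 starts lie within 84 bp of each other, and NONGGAT009044.2 alone runs on past the ends of the other transcripts, to 17654 bp.

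Within the JF hens, every long-DF hen had its fragments on NONGGAT009044.2 and every short-DF hen had at most 3 there. NONGGAT009044.2 had 40, 42 and 28 fragments in the long-DF hens JF25, JF61 and JF64, against 3, 2 and 1 in the short-DF hens JF21, JF40 and JF56. NONGGAT009046.2 had 0, 1 and 0 fragments in the same long-DF hens, against 33, 21 and 32 in the short-DF hens. The directions were thus opposite for the 2 lncRNAs. The selection favoured such a division between the groups, so nothing is read from it. As FPKM, NONGGAT009044.2 was at 1.71 ± 0.255 in JF long-DF hens and at 0.105 ± 0.0544 in JF short-DF hens (SD, n = 3 each). NONGGAT009046.2 was at 0.0158 ± 0.0273 FPKM in JF long-DF hens and at 1.64 ± 0.436 FPKM in JF short-DF hens (SD, n = 3 each).

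These values are among those that selected the pair. Summed over the JF hens, the 110 fragments of NONGGAT009044.2 in long-DF hens against 6 in short-DF hens gave a ratio of 17.4 after scaling for library size (95% counting interval 7.76 to 48.6). For NONGGAT009046.2 it was 1 fragment in long-DF hens against 86 in short-DF hens, and the level in short-DF hens was 90.4 times that in long-DF hens, with a wide counting interval of 15.8 to 3612. These intervals cover counting error only, since fragments were pooled over the hens of a group and treated as independent. They leave out the spread between hens and are no test of this contrast, which selected the pair. PCR copies, which look the same as separate molecules in the counts, would make them too narrow. The fitted log2 fold changes in edgeR, which depend on a prior count where a group is near 0, were 4.03 (SE 0.391) and -6.06 (SE 0.698). In DESeq2 they were 4.14 (SE 0.769) and -6.38 (SE 1.34), with larger SEs. These SEs come from fits of the contrast that selected the pair and are no test of it. By the thresholds of the study (an adjusted p up to 0.05, an unadjusted p up to 0.01 and a log2 fold change of 2 or more in size), 0.0418% of the 7169 lncRNAs tested in JF hens were called, 3 in all. The pair is not set against these thresholds and nothing is read from that share, since this contrast selected it.

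The JH hens did not show this division. NONGGAT009044.2 had 1, 67, 2 and 31 fragments in the long-DF hens JH14, JH25, JH95 and JH104, against 41, 39, 25 and 23 in the short-DF hens JH49, JH68, JH109 and JH130. All 4 short-DF hens had it, and the long-DF hens lay both above and below them, so the groups overlapped. NONGGAT009046.2 had 2, 1, 35 and 1 fragments in these long-DF hens, against 1, 1, 1 and 0 in the short-DF hens. JH95 was the only JH hen with more than 2 fragments of NONGGAT009046.2.

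In FPKM, NONGGAT009044.2 was at 1.34 ± 1.64 in JH long-DF hens and at 1.85 ± 0.562 in JH short-DF hens (SD, n = 4 each). The fitted log2 fold change in JH hens was -0.43 (SE 0.933), against 4.03 in JF hens. NONGGAT009046.2 was at 0.581 ± 0.996 FPKM in JH long-DF hens and at 0.0470 ± 0.0320 FPKM in JH short-DF hens (SD, n = 4 each). Its fitted log2 fold change in JH hens, 3.48 (SE 1.37), came down to 0.66 without JH95 and so rests on that hen. The value of NONGGAT009044.2 in JH hens, -0.43, was within its standard error of 0. It stayed negative with any 1 JH hen left out, from -1.38 (SE 0.957) without JH25 to -0.02 without JH14. Without JH95 it was -0.05. With values this near 0, its sign in JH hens is not established.

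The log2 fold change of long-DF against short-DF in JH hens, less that in JF hens, was -4.47 on the log2 scale (SE 1.37) for NONGGAT009044.2. For NONGGAT009046.2 it was 9.54 (SE 1.92) in a fit without the FPKM filter. In edgeR, 0.0% of the 6887 lncRNAs tested were called for such a difference, 0 in all, with 308 at an unadjusted p under 0.05 and 4 called by DESeq2 and by limma. The values of the JF hens that enter this difference also selected the pair, so it is a description and the pair is not set against the thresholds.

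**Figure D2:**
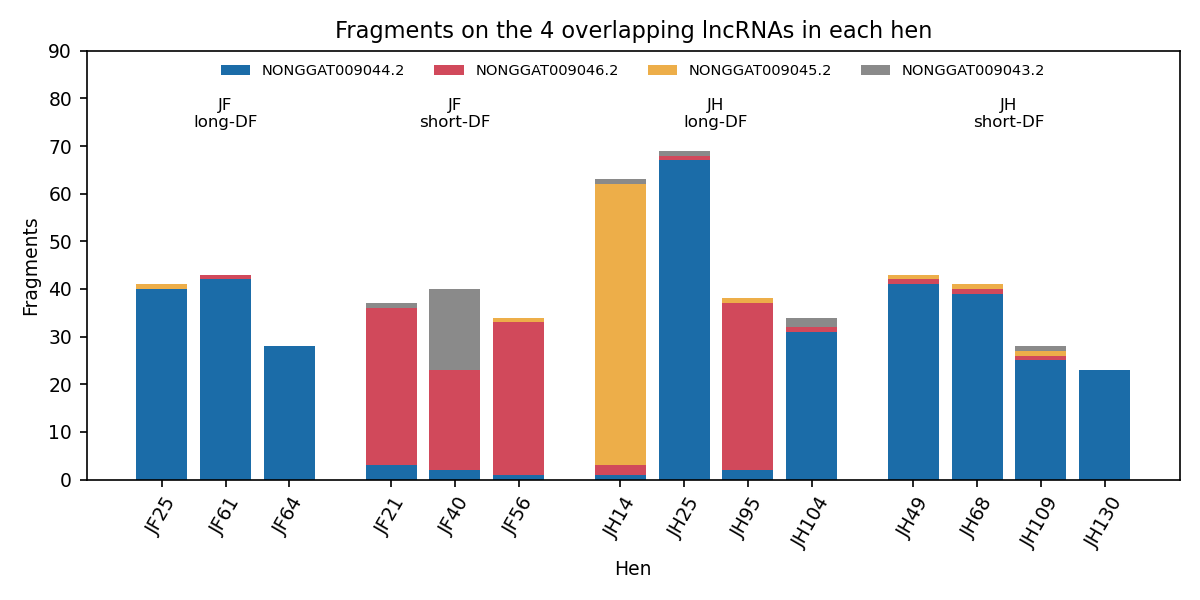
Fragments counted on the 4 overlapping lncRNAs in each of the 14 hens, stacked by transcript, with long-DF hens left of short-DF hens within each prefix. Bars are almost all of a single colour, with NONGGAT009044.2 in the 3 JF long-DF hens and NONGGAT009046.2 leading in the 3 JF short-DF hens, while in JF40 it shares the bar with NONGGAT009043.2.

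Over all 14 hens the groups overlapped widely for both lncRNAs. NONGGAT009044.2 was at 1.5 ± 1.19 FPKM in long-DF hens and at 1.10 ± 1.02 FPKM in short-DF hens (SD, n = 7 each), with a fitted log2 fold change of 0.53 (SE 0.803). NONGGAT009046.2 was at 0.338 ± 0.767 FPKM in long-DF hens and at 0.730 ± 0.889 FPKM in short-DF hens (SD, n = 7 each), with a log2 fold change of -1.14 (SE 1.18). Both standard errors were larger than the size of their fold change with all hens, while without JH95 the value of NONGGAT009046.2 was -3.80 (SE 1.16). In edgeR 0.0% of the 6887 lncRNAs tested were called between all long-DF and short-DF hens, 0 in all, with 146 at an unadjusted p under 0.05 and 2 called by DESeq2. The study itself did call lncRNAs between its groups. It lists NONGGAT009046.2 among those most reduced in long-DF hens, with a larger fold change than the one fitted here over all 14 hens.

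The members of the pair took turns between hens. No hen had more than 3 fragments on both, and JH14 was the only hen with at most 3 on each. NONGGAT009044.2 was the highest of the 4 transcripts in 9 hens, of which 6 were JH and 3 JF hens. NONGGAT009046.2 was the highest in 4 hens, of which 1 was a JH and 3 were JF hens. The JF hens in both counts are those whose opposite values selected the pair. JH14 had its fragments on NONGGAT009045.2, with 59, while in every other hen that transcript had 0 or 1. NONGGAT009043.2 was the highest in 0 hens and passed 2 fragments in JF40 alone, where it had 17 beside 21 of NONGGAT009046.2.

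Within a hen, a single transcript held nearly all fragments of the locus. Its share was over 90% in 11 of the 14 hens, with a median of 94.6%. The lowest share was 52.5% in JF40 (95% exact binomial interval 36.1% to 68.5%), and the next lowest was 89.2%. Across the 14 hens, NONGGAT009044.2 and NONGGAT009046.2 had a Spearman correlation of -0.554 and a Pearson correlation of -0.833 on log2(FPKM + 0.1). Both are given as a description, since the points share libraries and the transcripts share a stretch of the genome. The points include the JF hens whose opposite values selected the pair, so the selection favoured a negative correlation. NONGGAT009046.2 also had at most 3 fragments in 10 of the hens.

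On the log2 scale, the sum over the locus varied less than its parts. The pair was selected on a difference between hens, which favours a wide spread for each member. The 4 transcripts together had 63, 69, 38 and 34 fragments in the JH long-DF hens, against 43, 41, 28 and 23 in the JH short-DF hens. They had 41, 43 and 28 in the JF long-DF hens, against 37, 40 and 34 in the JF short-DF hens. Of the 562 fragments in all hens, 474 (84.3%) fell on NONGGAT009044.2 and NONGGAT009046.2. The SD of log2(FPKM + 0.1) over the 14 hens was 1.71 for NONGGAT009044.2 and 1.76 for NONGGAT009046.2, against 0.83 for their sum and 0.44 for the sum of the 4. In FPKM the SDs lay closer together, at 1.08 and 0.823 for the members, 0.762 for their sum and 0.799 for the sum of the 4. How the authors divided fragments between overlapping transcripts is not given in the sources used here, and its part in the alternation was not tested.

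In JF hens, where the pair differed most, the summed level of the 4 transcripts was 1.74 ± 0.284 FPKM in long-DF hens and 2.07 ± 0.0983 FPKM in short-DF hens (SD, n = 3 each). In FPKM every JF long-DF hen, at 1.41 to 1.93, lay below every JF short-DF hen, at 1.96 to 2.15. With counts summed per locus, the log2 fold change in JF hens was -0.06 (SE 0.197), and 0.05 without JF64. It was -0.15 (SE 0.194) when scaled to the library totals behind the FPKM, so its size depended on the scaling. In JH hens the summed level was 2.98 ± 1.12 FPKM in long-DF hens and 1.96 ± 0.594 FPKM in short-DF hens (SD, n = 4 each), with a log2 fold change of 0.52 (SE 0.257). The highest sums, 4.18 and 3.64 FPKM, were those of JH14 and JH25. Over all hens the sum was 2.45 ± 1.04 FPKM in long-DF hens and 2.01 ± 0.428 FPKM in short-DF hens (SD, n = 7 each), with a log2 fold change of 0.29 (SE 0.190). In bulk tissue, fewer cells of a type and less RNA per cell cannot be told apart.

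**Figure D3:**
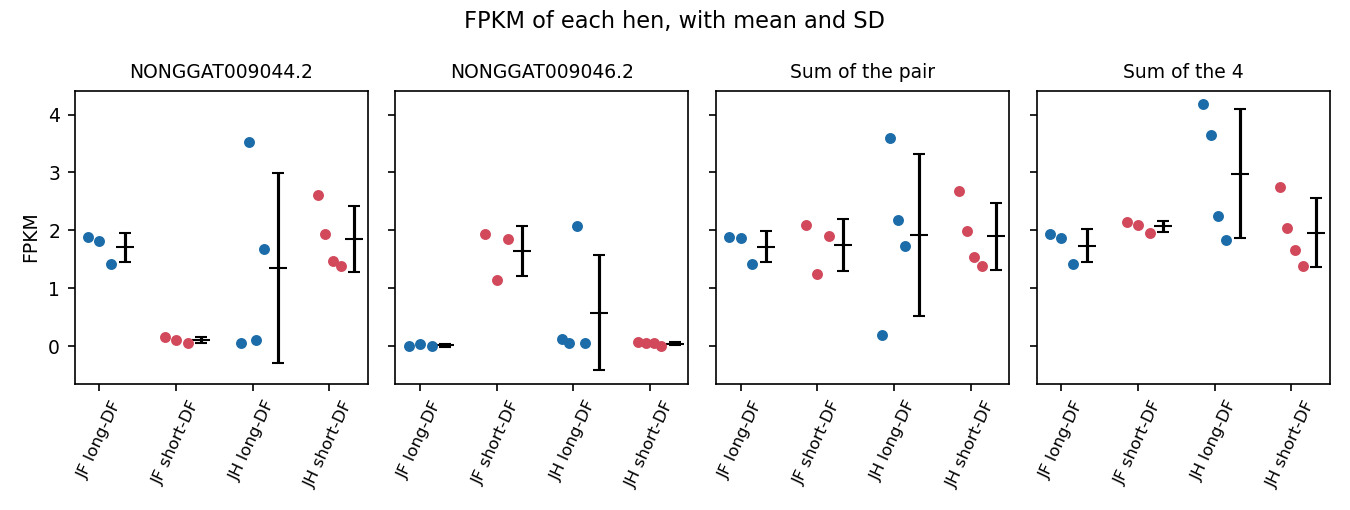
FPKM of each hen (points) for NONGGAT009044.2, NONGGAT009046.2, the sum of the pair and the sum of the 4 overlapping transcripts, by prefix and group, with the mean and SD as a dash and bars. NONGGAT009044.2 averages 1.71 FPKM in JF long-DF hens and 0.105 FPKM in JF short-DF hens, while the sum of the 4 averages 1.74 and 2.07 FPKM.

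JH and JF hens were compared with each other next, since more lncRNAs were called between the prefixes than between the groups. The JF hens whose values selected the pair enter here too. Selection favoured a wide spread of each member in JF hens, so a test of a member cannot decide whether the prefixes differ. NONGGAT009044.2 was at 1.6 ± 1.17 FPKM in JH hens (SD, n = 8) and at 0.905 ± 0.892 FPKM in JF hens (SD, n = 6). The log2 fold change of 1.13 (SE 0.896) did not exceed the spread between hens (adjusted p = 0.576 in edgeR). NONGGAT009046.2 was at 0.314 ± 0.712 FPKM in JH hens (SD, n = 8) and at 0.829 ± 0.932 FPKM in JF hens (SD, n = 6), a log2 fold change of -1.21 (SE 1.62, adjusted p = 0.775 in edgeR without the FPKM filter). Without JH95 this value was -3.10 (adjusted p = 0.0952). Neither was called, in a comparison in which 2.76% of the 6887 lncRNAs tested were called.

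The share of NONGGAT009046.2 in the summed FPKM of the pair was 22.3 ± 37.4% in JH hens (SD, n = 8) and 47.3 ± 51.0% in JF hens (SD, n = 6). The difference of -25.1 percentage points was within the spread between hens (two-sided exact permutation test over 3003 splits, p = 0.402). In JF hens the share lay between 0 and 2.53% in long-DF hens and between 92.0 and 97.2% in short-DF hens. The selection favoured this spread, so the test cannot decide whether the prefixes differ in the share. With a hen left out, the difference lay between -35.5 points, without JH95, and -15.1 points, without JF56. Within long-DF hens the share was higher in JH hens by 41.3 points. Among these JH hens it was high in JH14 and JH95 and low in JH25 and JH104. The share of JH14, 68.5%, comes from only 3 fragments of the pair and is poorly measured. JH14 nevertheless entered the mean of the JH hens and the test with the same weight as other hens. Without JH14 the difference between all JH and JF hens was -31.7 points. Within short-DF hens the difference was -91.5 points, with 2.37 ± 1.74% in JH hens (SD, n = 4) and 93.8 ± 2.94% in JF hens (SD, n = 3). The JF hens of these last values are among those that selected the pair, so no test is given within the groups.

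The summed FPKM of the pair differed by -0.10 on the log2 scale between JH and JF hens, within the spread between hens (two-sided exact permutation test, p = 0.913). Its direction was not stable, since the difference was 0.26 without JH14 and 0.012 with a pseudocount of 1. The sum of the 4 transcripts was at 2.47 ± 0.990 FPKM in JH hens (SD, n = 8) and at 1.90 ± 0.263 FPKM in JF hens (SD, n = 6). Its difference of 0.28 on the log2 scale did not exceed the spread between hens (two-sided exact permutation test, p = 0.251). Both sums hold the members in the JF hens that selected the pair, so these tests cannot decide whether the prefixes differ in level. Within long-DF hens the difference for the 4 transcripts was 0.68, and within short-DF hens it was -0.12. Each group held 4 JH and 3 JF hens. For the same reason no test is given within the groups, and no change of direction is read from these values.

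**Figure D4:**
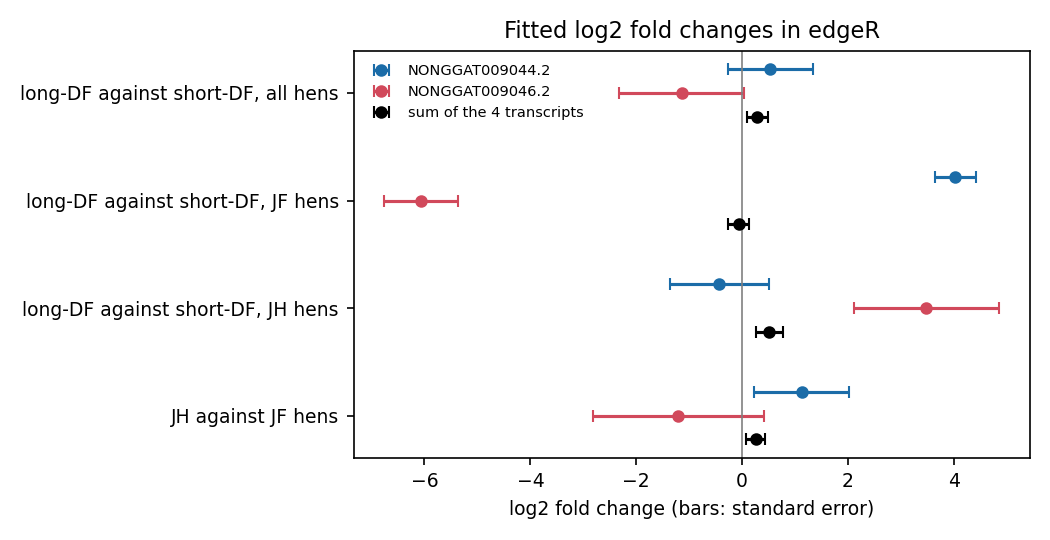
Log2 fold changes fitted in edgeR for NONGGAT009044.2, NONGGAT009046.2 and the sum of the 4 transcripts (points), with the standard error as bars, in 4 comparisons. In JF hens the pair lies at 4.03 and -6.06 and the sum at -0.06. The comparison within JH hens holds no JF hens, while the others include JF hens whose values selected the pair. The selection was on long-DF against short-DF hens, above all but not only JF hens, so the JH values are no independent check.

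In level, NONGGAT009044.2 averaged 1.3 FPKM over the 14 hens, above 70.9% of the lncRNAs in the table, and reached an FPKM of 0.1 in 11 hens. NONGGAT009046.2 averaged 0.534 FPKM, above 49.8% of the lncRNAs, and reached 0.1 in 5 hens. It therefore missed the filter of at least 7 hens that the tests over all hens used, and its values there come from a fit without the filter. NONGGAT009045.2 and NONGGAT009043.2 averaged 0.306 and 0.0854 FPKM. A count of 0 allows up to 3 fragments, so 0 to 3 fragments of a member in a hen do not show that it was absent there.

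Among 6886 other lncRNAs, those whose FPKM ordered the 14 hens most like NONGGAT009044.2 were MSTRG.1151.1, NONGGAT008953.2 and NONGGAT008458.2, with Spearman correlations of 0.868, 0.842 and 0.837. NONGGAT003306.2 ordered them in the most opposite way, at -0.786. The closest to NONGGAT009046.2 were MSTRG.12769.1, MSTRG.21317.1 and NONGGAT001859.2, at 0.837, 0.823 and 0.823, and the most opposite was NONGGAT005566.2, at -0.815. Such values are the extremes of many correlations over 14 hens and are given as a description. NONGGAT009046.2 had at most 3 fragments in 10 hens, so much of its order rests on few fragments. MSTRG.1151.1 had 0 to 5 fragments per hen and NONGGAT003306.2 had 0 to 4. With Pearson correlations, 2 of the 5 lncRNAs most like NONGGAT009044.2 stayed among the 5 highest, and 0 of the 5 for NONGGAT009046.2.

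Other pairs of lncRNAs, overlapping or not, also took turns between hens. For this count, whose limits were chosen after the values of the pair were seen, 2 lncRNAs alternated if each had at least 20 fragments in at least 4 hens in which the other had at most 3. NONGGAT009044.2 and NONGGAT009046.2 did so, with 9 hens for the first and 4 for the other. Of these 4 hens, 3 were JF hens whose values selected the pair. The pair meets the limits only with them, so nothing is read from its doing so. Among 171 lncRNAs that could meet the limits, 10 of 82 overlapping pairs alternated (12.2%), in 8 loci, and 7 of these never had over 3 fragments on both in a hen. Of the pairs that did not overlap, 1133 of 14453 alternated (7.84%). The pair is therefore 1 of 10 such overlapping pairs in these hens. Whether the shares of overlapping and other pairs differ was not tested.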

How the data were processed

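Paired reads from the UVJ of 14 hens were mapped by the authors to Galgal4 (TopHat), and transcripts were assembled (StringTie). For each lncRNA and hen they deposited a raw count of fragments, without normalization, and an FPKM, which is scaled to transcript length and library size. The counting tool is not given in the sources used here. Counts were tested in edgeR 4.0.16 (R 4.3.3) with TMM normalization and the quasi-likelihood test, on lncRNAs that reached an FPKM of 0.1 in 7 or more of the 14 hens (3 or more of 6 JF hens), with Benjamini-Hochberg adjustment over all of them. SEs were computed back from F and the log2 fold change. Where NONGGAT009046.2 missed the filter, a fit without it was used. The locus sums counts over lncRNAs with overlapping spans on either strand. Ratios of summed fragments carry exact binomial intervals. Single values were compared by exact permutation over hens, on log2(FPKM + 0.1) for levels. The fit was tested on simulated data. The members and lists were chosen with earlier results of these data known. The named lncRNAs are the pair, the transcripts that overlap them, and those most like and most unlike them in order of hens, of which the first 3 and the first are given. Depth was 213304 to 281892 lncRNA fragments per hen, of which a count of 0 allows up to 0.00106% to 0.00141%. Alternatives were DESeq2 1.42.0, limma 3.58.1, other scalings, filters and pseudocounts, and leaving out each hen, and the sums over the locus and the filter over all hens within JF hens were chosen after seeing the data. Python 3.11.15, pandas 2.3.3, scipy 1.17.1 and matplotlib 3.10.9 were used.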

Additional observations from a re-analysis of the deposited data

Results flagged for a closer look

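A hen stood apart in 6 of 28 groups of hens, where chance gives about 1 in 20 for independent groups. The groups by DF and by prefix share hens, and the 6 are 3 values that each stood apart in both, so the count is not set against that rate. NONGGAT009046.2 in JH95, at 2.074 FPKM, was far above the other long-DF and the other JH hens, which were at 0.1319 FPKM or lower. NONGGAT009045.2 in JH14, at 3.931 FPKM, was far above the other long-DF hens, at 0.05989 or lower, and above the other JH hens, at 0.07009 or lower. NONGGAT009043.2 in JF40, at 0.8575 FPKM, was far above the other short-DF hens, at 0.05984 or lower, and above the other JF hens, at 0.05448 or lower. In these 3 hens NONGGAT009044.2 had 2, 1 and 2 fragments.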

How the results depend on the processing

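Of the values recomputed under the alternatives, 2 reversed, 27 moved by more than their limit and 275 did not. The limit was 1 standard error for fold changes without a test, the side of the threshold for tested values and 1.5 times for counts, so values within it could still move or change sign. The log2 difference in the summed FPKM of the pair between JH and JF hens, -0.10, was 0.012 with a pseudocount of 1, and -0.27 to 0.26 with a hen left out, where JH14 gave 0.26. Calls between all long-DF and short-DF hens were 2 in DESeq2. Within JF hens they were 12 in DESeq2, 26 in limma and 0 to 3 with a hen left out, where leaving out JF25 gave 1 and JF61 or JF64 gave 0. For the difference between the prefixes the calls were 4 in DESeq2, 4 in limma, 1 with an FPKM of at least 0.5 and 0 to 2 with a hen left out. Calls between JH and JF hens were 190 of 6887 lncRNAs tested in the main fit. They were 119 of 4734 tested with an FPKM of at least 0.5, so fewer lncRNAs were tested there. With a hen left out they were 146 to 190. With Pearson in place of Spearman correlations, 2 of the 5 lncRNAs most like NONGGAT009044.2 and 1 of its 3 most unlike were shared, and 0 and 0 for NONGGAT009046.2. The fold change of NONGGAT009046.2 over all hens was -3.80 (SE 1.16) without JH95 and -0.30 with the prefix as a covariate, and that of NONGGAT009044.2 in JH hens was -1.48 in limma. No paired analysis was possible because the groups share no hen numbers. The depth limits every share given, with 23 to 69 fragments per hen at the locus and 3 to 68 on the pair.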
